A study of Bos taurus with 14 samples.

Results

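The genes described here are the subunits of the proteasome together with ubiquitin precursors, ubiquitin-conjugating enzymes and the USP deubiquitinases, 50 genes in all. They were matched by gene name. A probe of the bovine array was kept when its symbol began with PSMA to PSMG and a number, with UBE2, UBA, UBB or a related ubiquitin name, or with USP and a number, leaving out PSMB9, PSME1, PSME2 and USP18. Of 15208 non-control probes, 6708 had a symbol by this reading (6536 distinct genes) and 52 of them matched the pattern. USP5 and USP21 had 2 probes each, and the probe with the highest mean signal stands for each gene. By role there were 5 alpha and 5 beta subunits of the 20S core, 2 interferon-inducible beta subunits (PSMB8 and PSMB10), 6 ATPases and 10 non-ATPase proteins of the 19S cap (counting the assembly chaperones PSMD5 and PSMD10), the inhibitor PSMF1, 2 ubiquitin precursors, 9 E2 enzymes and 8 USP enzymes. The pattern also took in UBAP2L and UBASH3A, proteins with a ubiquitin-associated domain that do not conjugate ubiquitin. The 8 counted as USP enzymes include USP52, which RefSeq calls PAN2, a subunit of a poly(A) nuclease with an inactive USP fold. For 23 of the 50 genes the array annotation names the bovine transcript as similar to a human gene.

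The 26S proteasome degrades proteins that carry chains of ubiquitin. Its 20S core is a barrel of alpha and beta rings, with the proteolytic sites on PSMB5, PSMB6 and PSMB7, and the 19S cap unfolds the substrate with a ring of PSMC ATPases while PSMD proteins recognise and remove the ubiquitin chain. Ubiquitin is activated by an E1 enzyme, passed to an E2 and placed on the target by a ligase, and USP enzymes take it off again. Interferons are known to induce PSMB8, PSMB9 and PSMB10, which replace the constitutive catalytic subunits to form the immunoproteasome, whereas the constitutive subunits are usually described as housekeeping genes.

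The series asked how bovine cells respond to interferon tau (IFNT), the type I interferon by which the ruminant conceptus signals its presence to the mother. Bovine endometrial stromal cells (BES) and bovine granulocytes were kept in vitro for 2 h either in phosphate-buffered saline (PBS) as the control or in IFNT, at a dose that the labels give as 1 mg/mL, a unit that no other source used here bears out and that may be an error. BES contributed 3 PBS and 3 IFNT samples and granulocytes 4 of each, and every sample was hybridised to 1 Cy3-labelled array. The labels do not say whether the samples of a group came from separate animals or cultures, so errors and p-values measure only the spread between these samples, which may be technical. They describe RNA extraction for granulocytes alone.

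On BES arrays 71.6% to 76.1% of probes were well above background, and on granulocyte arrays 66.4% to 70.9%. The cell types were hybridised on different slides, 1 slide each. Granulocyte arrays with PBS occupied row 1 of their slide and those with IFNT row 2, so row and treatment cannot be told apart there; for BES, row 1 held PBS samples 1 and 2, and row 2 held the other 4 arrays. All 7 neutrophil markers measured were well above background on every granulocyte array with PBS, as were 5 monocyte, 3 B cell and 2 eosinophil markers and 6 of 7 T and NK markers, among them CD3E at a mean level of 1.22. In BES all 9 stromal markers measured were above background (COL3A1 at 6.15, DCN at 4.94, THY1 at -4.39, PDGFRA at -5.76). Under PBS 7 of the 9 were lower in granulocytes and 2 higher, THY1 by 2.51 and VIM by 0.14. COL1A1, FN1, THY1 and VIM were above background on every granulocyte array. Of 6 epithelial markers measured, 5 were also above background on every BES array with PBS. They were KRT8 at 7.19, KRT19 at 5.95, CDH1 at 3.50, MUC1 at -3.70 and KRT5 at -6.85, whereas EPCAM was not on any. On granulocyte arrays with PBS 4 of the 6 were above background throughout, among them CDH1 at 1.52 and KRT19 at 0.94. The summed level of each marker list, on the log2 scale, ranged in granulocytes from 9.49 to 9.84 with PBS and from 9.54 to 9.70 with IFNT for neutrophil markers, from 2.23 to 2.28 and from 2.23 to 2.29 for T and NK markers, from 4.82 to 4.95 and from 4.73 to 4.78 for monocyte markers, and from 3.78 to 3.86 and from 3.41 to 3.60 for eosinophil markers. In BES it ranged from 7.29 to 7.32 and from 7.38 to 7.41 for stromal markers and from 7.69 to 7.88 and from 7.76 to 7.78 for epithelial ones. The eosinophil sum was lower on every IFNT array of granulocytes, and 2 of 2 markers fell. The monocyte sum was also lower there, but its markers moved both ways: CD68 fell by 0.36, CD14 rose by 1.03, C1QB by 0.47 and C1QC by 0.41, C1QA did not pass, and the median change of the 5 was 0.41. The stromal sum was higher on every IFNT array of BES, although of 9 markers 0 were called higher and 1 lower. The part of these cells in the results was not tested. As a check of the treatment, of 5 interferon-induced genes 5 rose in BES and 5 in granulocytes, RSAD2 by 6.10 and 4.70 on the log2 scale.

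Levels are given throughout as the log2 processed signal of a probe minus the 75th percentile of its array, so that 0 is the array's 75th percentile and 1 unit is a doubling. A level belongs to its own probe and is compared only between arrays. Each probe is a 60-base oligonucleotide. The probes behind the 2 largest IFNT rises among the 50 genes, with the probe of the inducible subunit PSMB8 and that of UBA7 as points of comparison, had these sequences, 5′ to 3′ as the array files give them, in lower case throughout; for PSMA2 the first 30 bases are shown.
PSMA2: cccaactgaagttaaggattatttggctgc
PSMC3: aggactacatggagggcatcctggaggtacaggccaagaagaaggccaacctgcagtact
PSMB8: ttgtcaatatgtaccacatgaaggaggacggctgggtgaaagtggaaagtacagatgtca
UBA7: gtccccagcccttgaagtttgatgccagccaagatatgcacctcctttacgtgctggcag
Among 1953 pairs of probes of these genes and their relatives, 0 pairs shared a run of 15 bases or more, and the longest run on opposite strands was 11 bases. Probes of one family member thus shared no exact run of that length with another's. Similarity with mismatches and matches to other transcripts were not examined.

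In granulocytes, IFNT moved 24 of the 48 genes that could be tested, 9 upward and 15 downward. Of all 10379 probes tested in these cells 44.6% were called, so these genes were called about as often as the array at large. Upward calls made up 17.2% and downward calls 27.4% of all probes. The counts by role below are to be read beside these shares. The median change of the 48 genes was -0.05 on the log2 scale, against -0.05 over all probes, and single genes ranged from -0.64 to 2.08. Changes within the proteasome went both ways: of 25 genes of the constitutive 26S particle tested, the 2 chaperones included, 5 rose, 8 fell and 12 did not pass the test. PSMB1, a beta subunit, and UBE2E3, an E2, were not tested in granulocytes, since PSMB1 was well above background on 0 PBS arrays and 1 IFNT array and UBE2E3 on 0 arrays. The test was limma's moderated test, two-sided, with Benjamini-Hochberg adjustment over all probes and a threshold of 0.05.

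The alpha ring of the 20S core, which gates entry to the chamber, held the gene with the largest rise of the 48. PSMA2 stood at 1.85, 1.82, 2.13 and 1.70 on the 4 PBS arrays of granulocytes and at 3.92, 3.94, 4.04 and 3.91 on the 4 IFNT arrays. The groups lay far apart relative to their own ranges. The rise was 2.08 ± 0.09 (SE) on the log2 scale, or 4.21-fold (limma adjusted p = 3.24e-07). PSMA3, another alpha subunit, went from 0.98, 0.89, 1.14 and 0.81 with PBS to 1.39, 1.49, 1.59 and 1.47 with IFNT, a rise of 0.53 ± 0.08 (adjusted p = 6.09e-04). PSMA4 rose by 0.43 ± 0.07 (adjusted p = 8.76e-04), from 1.51, 1.64, 1.70 and 1.69 to 1.99, 1.97, 2.18 and 2.12. Every IFNT array of these 3 genes was above every PBS array. PSMA6 went the other way, from 3.72, 3.67, 3.88 and 3.49 to 3.22, 3.32, 3.47 and 3.33, and fell by 0.35 ± 0.09 (adjusted p = 0.0110). PSMA5 did not pass, at 0.05 ± 0.07 with a 95% interval from -0.12 to 0.21. Subunits that occupy one ring thus carried changes of opposite sign, with 3 up, 1 down and 1 not past the threshold.

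Among constitutive beta subunits 0 of 4 tested rose and 1 fell, beside 17.2% and 27.4% of all probes. PSMB5, which bears the chymotrypsin-like site and is the subunit that PSMB8 replaces in the immunoproteasome, stood at -0.12, -0.00, 0.21 and -0.05 with PBS and at -0.53, -0.56, -0.45 and -0.53 with IFNT. Its 4 IFNT arrays were all below the PBS arrays, and it fell by 0.53 ± 0.07 (adjusted p = 4.59e-04). PSMB6, with the caspase-like site, changed by -0.21 ± 0.09 and PSMB2 by -0.10 ± 0.04, and neither passed, though both did in a joint fit of all arrays. PSMB4 changed by 0.12 ± 0.06 and did not pass.

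The inducible partner moved in the opposite direction to PSMB5. PSMB8 read 2.43, 2.24, 2.40 and 2.09 in granulocytes with PBS and 3.20, 3.08, 3.14 and 3.12 with IFNT, a rise of 0.85 ± 0.08 or 1.80-fold (adjusted p = 4.33e-05). PSMB10, which replaces the trypsin-like site, went only from 1.05, 1.11, 1.13 and 1.04 to 1.17, 1.19, 1.20 and 1.16. All 4 IFNT arrays of PSMB10 were above the PBS arrays, yet the difference of 0.10 ± 0.04 did not pass the test (adjusted p = 0.0828); it passed under quantile normalization and in a joint fit of all arrays. PSMB9, the third inducible subunit, is outside the list of 50 and rose by 0.86 ± 0.05 (adjusted p = 1.68e-06), close in size to PSMB8.

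**Figure D1:**
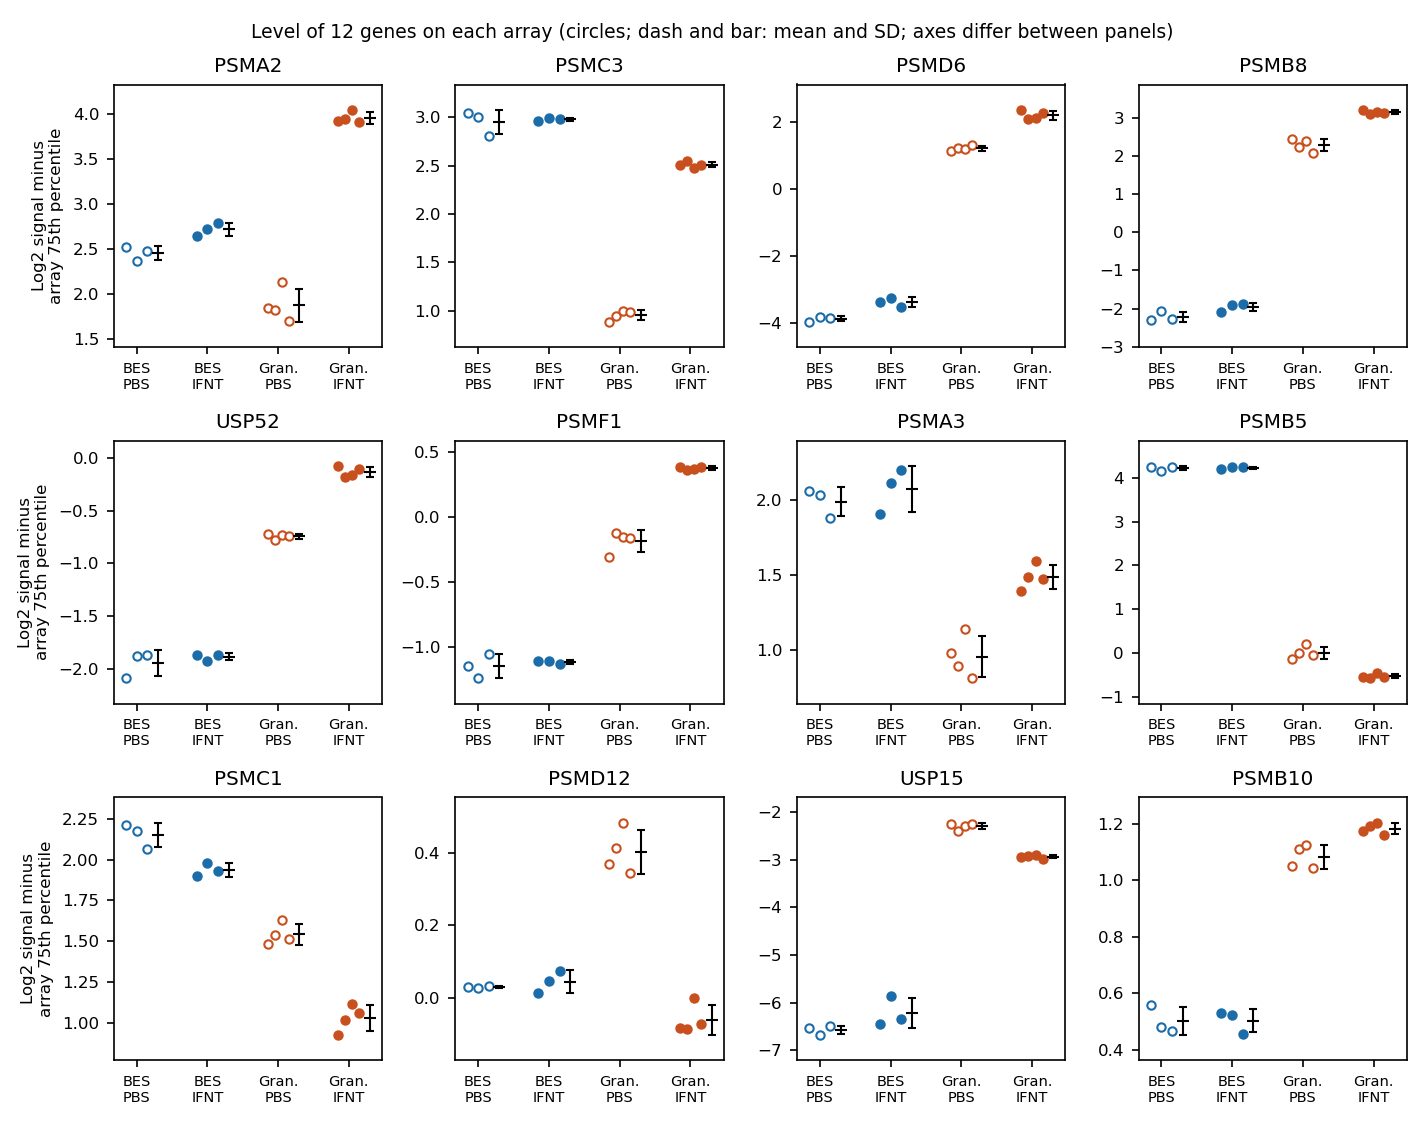
Level of 12 genes on every array, as log2 signal minus the array's 75th percentile (vertical axis, scaled per panel), for BES with PBS and IFNT (n = 3 each) and granulocytes with PBS and IFNT (n = 4 each). Circles are arrays and the dash with bar is the mean and SD; PSMA2 and PSMC3 rise in granulocytes with no overlap, while PSMB5, PSMC1, PSMD12 and USP15 fall.

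The 19S ATPases, which form the ring that unfolds substrates, also changed in both directions. PSMC3 read 0.89, 0.94, 0.99 and 0.99 on the PBS arrays of granulocytes and 2.50, 2.55, 2.48 and 2.51 on the IFNT arrays. The groups were far apart and tight, and PSMC3 had the smallest adjusted p of the 48 genes: it rose by 1.56 ± 0.04, or 2.94-fold (adjusted p = 2.58e-08). PSMC1 fell by 0.51 ± 0.06 (adjusted p = 1.2e-04), from 1.49, 1.54, 1.63 and 1.51 to 0.93, 1.01, 1.12 and 1.06. PSMC2 fell by 0.43 ± 0.10 (adjusted p = 8.18e-03) and PSMC6 by 0.30 ± 0.09 (adjusted p = 0.0214). PSMC4 (0.09 ± 0.06) and PSMC5 (-0.04 ± 0.06) did not pass. With 1 of 6 up and 3 of 6 down, PSMC3 was the sole ATPase to rise.

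Of the 10 non-ATPase proteins of the cap 1 rose and 3 fell, beside 17.2% and 27.4% of all probes. PSMD6, a scaffold subunit of the lid, went from 1.14, 1.21, 1.19 and 1.30 with PBS to 2.35, 2.08, 2.10 and 2.26 with IFNT, a rise of 0.99 ± 0.07 or 1.98-fold (adjusted p = 8.87e-06). PSMD12, another scaffold subunit of the lid, fell by 0.46 ± 0.05 (adjusted p = 8.28e-05), from 0.37, 0.41, 0.48 and 0.34 to -0.08, -0.09, 0.00 and -0.07. In both genes the IFNT arrays were apart from the PBS arrays, above them for PSMD6 and below them for PSMD12. PSMD5, an assembly chaperone of the cap, fell by 0.21 ± 0.05 (adjusted p = 8.56e-03), and PSMD4, a ubiquitin receptor, by 0.29 ± 0.10 (adjusted p = 0.0487). PSMD14, the deubiquitinase of the lid, read 1.65, 1.57, 1.53 and 1.59 with PBS and 1.53, 1.64, 1.58 and 1.56 with IFNT; its change of -0.01 ± 0.05 had a 95% interval from -0.11 to 0.10. PSMD3, PSMD7, PSMD10, PSMD11 and PSMD13 also did not pass, with changes between -0.09 and 0.10.

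PSMF1, known as PI31 and first described as an inhibitor of the 20S core, rose by 0.56 ± 0.05 or 1.48-fold (adjusted p = 3.45e-05). Its PBS arrays were at -0.31, -0.12, -0.15 and -0.16 and its IFNT arrays at 0.39, 0.36, 0.37 and 0.39. The proteasome activators PSME1 and PSME2, which lie outside the 50 genes, rose by 0.71 ± 0.04 and 1.05 ± 0.06 in the same cells (adjusted p = 3.64e-06 and 1.62e-06).

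Of 8 E2 enzymes tested 1 rose and 3 fell, beside 17.2% and 27.4% of all probes. UBE2V2, a catalytically inactive E2 variant that helps UBE2N build K63-linked chains, fell by 0.45 ± 0.06 (adjusted p = 2.33e-04), with PBS arrays at -0.28, -0.28, -0.24 and -0.29 and IFNT arrays at -0.85, -0.62, -0.67 and -0.75. UBE2B, an E2 of the RAD6 pair, fell by 0.38 ± 0.05 (adjusted p = 3.56e-04), from 1.77, 1.64, 1.75 and 1.62 to 1.28, 1.30, 1.37 and 1.31. Its paralogue UBE2A changed by 0.04 ± 0.06 and did not pass. The UBE2D family, E2s that serve many ligases, was divided: UBE2D3 rose by 0.27 ± 0.07 (adjusted p = 0.0116), UBE2D2 fell by 0.29 ± 0.09 (adjusted p = 0.0219) and UBE2D1, at -0.17 ± 0.10, did not pass. UBE2F (-0.06 ± 0.05), the E2 for NEDD8, did not pass either.

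Of the 8 counted as USP enzymes 1 rose and 3 fell, beside 17.2% and 27.4% of all probes. The 1 that rose was USP52, the poly(A) nuclease subunit with an inactive USP fold. USP15 had the largest fall of the 48 genes, 0.64 ± 0.05 (adjusted p = 1.11e-05), from -2.24, -2.38, -2.29 and -2.24 with PBS to -2.93, -2.91, -2.90 and -2.98 with IFNT. USP16, a histone H2A deubiquitinase, fell by 0.39 ± 0.08 (adjusted p = 3.58e-03), and USP50 by 0.15 ± 0.05 (adjusted p = 0.0443). USP52 rose by 0.61 ± 0.04 (adjusted p = 7.12e-06), from -0.72, -0.78, -0.73 and -0.74 to -0.08, -0.18, -0.16 and -0.11. The proteasome-bound USP14 read -0.43, -0.47, -0.46 and -0.67 against -0.29, -0.33, -0.39 and -0.43, and its difference of 0.15 ± 0.07 did not pass (adjusted p = 0.0988). UBAP2L (0.04 ± 0.08) and UBASH3A (-0.47 ± 0.42) did not pass; UBASH3A is a T cell gene and had the widest spread of all 48 in granulocytes.

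**Figure D2:**
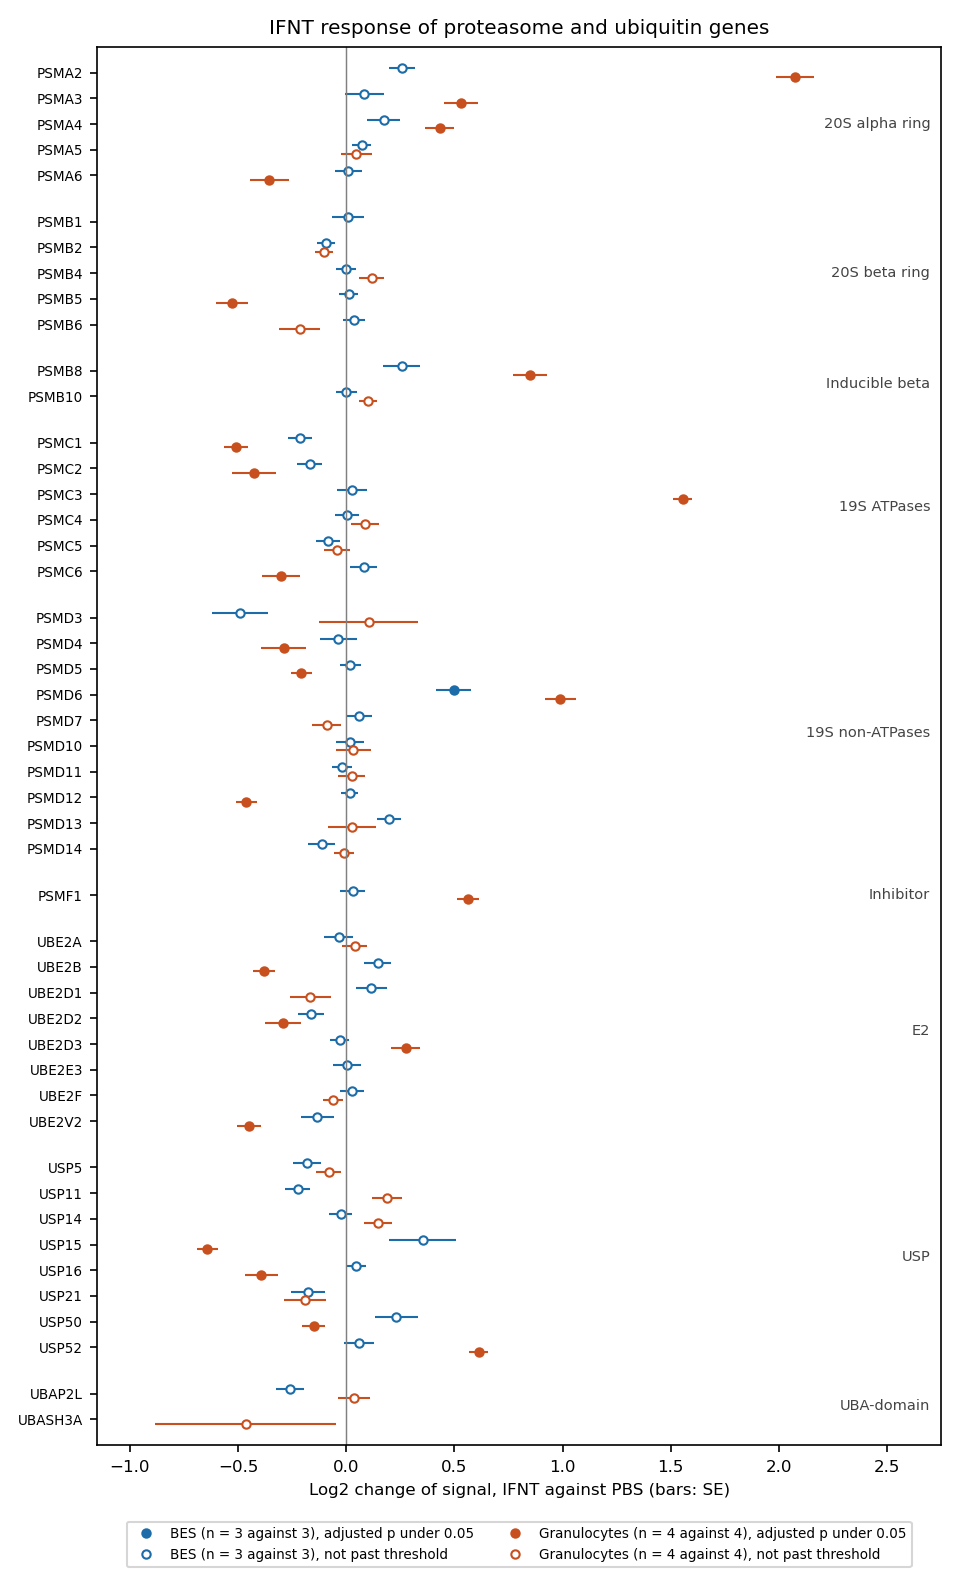
Log2 change of signal with IFNT against PBS (horizontal axis) for each gene reported, ordered by role, in BES (blue, 3 arrays against 3) and granulocytes (orange, 4 against 4). Points are limma estimates, bars are 1 SE and filled points have an adjusted p under 0.05; PSMA2 (2.08) and PSMC3 (1.56) stand far to the right in granulocytes, while in BES PSMA2 is at 0.26, not past the threshold, and PSMC3 at 0.03.

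Groups that did not overlap in granulocytes were seen for 11 genes upward and 13 downward of 48, beside 16.8% and 26.8% of all probes. Of the 24 calls, 19 were kept under every alternative setting and every left-out array. The others were small falls. PSMC6 lost its call without IFNT sample 1, 2 or 4 or PBS sample 2 (-0.30 to -0.27), UBE2D2 without IFNT sample 1 or 2 or PBS sample 1, 2 or 3 (-0.29 to -0.25), PSMD4 without IFNT sample 1, 3 or 4 or PBS sample 1, 2 or 4, in the deposited table and without the filter on dim probes (-0.31 to -0.23), and USP50 without any single sample but PBS sample 1, without that filter, under normexp background correction and in the joint fit (-0.16 to -0.11).

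In BES the same 2 h of IFNT moved 1 of 49 genes past the threshold, and it rose; beside it, 3.66% of all 11309 probes tested were called, 2.29% upward and 1.37% downward. The gene was PSMD6, which read -3.95, -3.80 and -3.84 on the PBS arrays and -3.36, -3.23 and -3.51 on the IFNT arrays, 0.50 ± 0.08 higher or 1.41-fold (limma adjusted p = 0.0314). The 3 IFNT arrays were all above the PBS arrays. The call was not kept without any of PBS samples 1, 2 and 3 or IFNT samples 1 and 2 (0.43 to 0.53), nor with array row as a covariate (0.47) or without the filter on dim probes. UBASH3A was well above background on 0 BES arrays and was not tested.

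At an unadjusted p under 0.05 there were 11 such genes, beside 25.4% of all probes. Separate groups were seen for 7 genes upward and 8 downward, beside 12.5% and 21.1% of all probes. PSMA2, with 2.52, 2.37 and 2.48 on PBS arrays and 2.64, 2.72 and 2.79 on IFNT arrays, was higher by 0.26 ± 0.06 without overlap but did not pass (adjusted p = 0.0766; 95% interval from 0.11 to 0.41); it passed with an intensity trend and robust prior (adjusted p = 0.0169) and under normexp (0.0456). PSMC3 stood at 3.04, 3.01 and 2.81 with PBS and at 2.96, 2.99 and 2.98 with IFNT, a difference of 0.03 ± 0.07 with an interval from -0.14 to 0.19. The BES interval of PSMC3 ends far below its rise in granulocytes.

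PSMB8 in BES read -2.29, -2.06 and -2.28 with PBS and -2.09, -1.90 and -1.88 with IFNT, with 1 IFNT array between the PBS arrays, and its difference of 0.26 ± 0.09 did not pass (adjusted p = 0.145). PSMB10 differed by 0.00 ± 0.05 and PSMB5 by 0.01 ± 0.04. The largest difference downward was that of PSMD3, a lid scaffold, at -0.49 ± 0.13 (adjusted p = 0.0956), with PBS arrays at -0.40, -0.09 and -0.56 and IFNT arrays at -0.95, -0.70 and -0.86. PSMD3 passed with the intensity trend and robust prior (adjusted p = 0.0415) and under normexp (0.0481). PSMC1, at -0.21 ± 0.05, and USP15, at 0.35 ± 0.15, did not pass either, though PSMC1 did with the intensity trend (0.0248), as did PSMD13, UBAP2L and USP11. The second probe of USP5, a deubiquitinase that disassembles free ubiquitin chains, differed from the probe that stands for the gene: it fell in BES by 0.76 ± 0.14 (adjusted p = 0.0432), while the chosen, brighter probe was at -0.18 ± 0.06 (adjusted p = 0.147).

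The responses of the cell types differed for 20 of 50 genes, 9 with a more positive change in granulocytes and 11 with a more negative one. In granulocytes array row went with treatment, so a row effect cannot be told apart from IFNT in these differences. Row as a covariate was fitted in BES alone. Of all 12046 probes tested for the difference of the responses 26.5% were called, 11.7% positive and 14.8% negative. PSMA2 led with a difference of 1.82 ± 0.12 on the log2 scale (limma adjusted p = 4.46e-07), followed by PSMC3 at 1.53 ± 0.08 (adjusted p = 3.48e-08). PSMB8 (0.59 ± 0.13), USP52 (0.55 ± 0.08), PSMF1 (0.53 ± 0.07), PSMD6 (0.49 ± 0.11), PSMA3 (0.45 ± 0.13) and USP11 (0.41 ± 0.10) followed, and UBE2D3 (0.30 ± 0.09) was the smallest. USP11 had passed in neither cell type, though it passed in granulocytes under 5 alternatives (lowest adjusted p = 0.0254) and in BES under 1 (0.0252). It read 1.69, 1.60 and 1.55 against 1.42, 1.32 and 1.43 in BES, and 1.05, 0.94, 0.80 and 1.05 against 1.20, 1.21, 1.06 and 1.12 in granulocytes, so that its arrays were separated downward in BES and upward in granulocytes.

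On the negative side USP15 led, with a difference of -0.99 ± 0.16 (adjusted p = 5.31e-04), higher by 0.35 in BES and lower by 0.64 in granulocytes. PSMB5 differed by -0.54 ± 0.10, UBE2B by -0.53 ± 0.08, PSMD12 by -0.48 ± 0.06, USP16 by -0.44 ± 0.10, USP50 by -0.38 ± 0.11, PSMC6 by -0.38 ± 0.12, PSMA6 by -0.37 ± 0.12, UBE2V2 by -0.32 ± 0.10, PSMC1 by -0.30 ± 0.08 and PSMD5 by -0.23 ± 0.07. The IFNT response of 30 genes was not shown to differ, among them PSMC4 (0.09 ± 0.09) and PSMC5 (0.04 ± 0.09). Of the 20 calls 13 were kept under every alternative, and 7 were lost under at least 1. PSMA3 lost its call without BES PBS sample 1 or BES IFNT sample 1 (0.36 to 0.41), USP50 without BES PBS sample 2 (-0.33), UBE2D3 without BES PBS sample 2 or 3 or BES IFNT sample 1 or 3 (0.29 to 0.30), UBE2V2 without BES PBS sample 2 or 3 or BES IFNT sample 2 or 3 (-0.32 to -0.26), and PSMD5 without BES PBS sample 1, BES IFNT sample 2 or 3 or granulocyte IFNT sample 2 (-0.22 to -0.20). PSMA6 (-0.38 to -0.30) lost its call without any of 5 of the 6 BES samples or 6 of the 8 granulocyte samples, and PSMC6 (-0.38 to -0.31) without any of 3 BES or 5 granulocyte samples. Both lost it without the filter on dim probes, and PSMC6 also under normexp.

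Differences in level between the cell types were larger than the changes with IFNT, with a median absolute size of 1.26 over the 50 genes on the log2 scale, against 0.21 for the IFNT change in granulocytes and 0.07 in BES. The whole array showed the same order, with 1.71 for levels, 0.20 for granulocytes and 0.10 for BES over all probes tested. Under PBS, 47 of 50 genes differed between granulocytes and BES, beside 91.7% of all probes, 18 higher and 29 lower in granulocytes. Over all probes 46.7% were higher and 45.0% lower, with a median difference of 0.03. The level counts by role below are to be read beside these shares. The 26 genes of the constitutive 26S particle, which include the chaperones PSMD5 and PSMD10, both lower, leaned to one side: 4 were higher in granulocytes, 21 lower and 1 (PSMB1) not past the test, with a median of -1.04 on the log2 scale. Cell type and slide cannot be told apart in any of these differences, and in bulk samples fewer cells of a type cannot be told apart from less RNA per cell. Scaling mattered for the median of all probes, which moved by -0.27 under quantile normalization and by 0.47 under normexp background correction. Relative to that median, 22 of these 26 genes were lower in granulocytes in the main values, 23 under quantile normalization and 23 under normexp.

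By ring and cap, all 6 ATPases were lower in granulocytes, with a median of -1.36, as were 4 of 5 beta subunits (median -1.57), 4 of 5 alpha subunits (-0.62) and 7 of 10 non-ATPase proteins (-0.84). PSMD10, the assembly chaperone called gankyrin, was at 0.86, 0.87 and 0.89 in BES and at -3.33, -3.53, -3.27 and -3.50 in granulocytes, 19.5-fold lower (-4.28 ± 0.08; limma adjusted p = 2.17e-14). PSMB5 was 18.4-fold lower in granulocytes (-4.20 ± 0.07), from 4.24, 4.16 and 4.24 in BES to levels near 0. PSMB6 was 4.60-fold lower, PSMC4 4.57-fold, PSMA5 4.14-fold and PSMC3 3.99-fold. With IFNT the PSMC3 arrays of granulocytes came closer to the BES arrays, without reaching them, and those of PSMA2 passed above all BES arrays.

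The genes of the particle that were higher in granulocytes were PSMD6, PSMD4, PSMD12 and PSMA6. PSMD6 showed the widest gap of all 50 genes, 5.07 ± 0.08 or 33.6-fold, with the single probe for this gene near -3.9 in BES and near 1.2 in granulocytes. PSMD4 was 3.27-fold higher, PSMD12 1.29-fold and PSMA6 1.21-fold, the last turning to -0.29 under quantile normalization. The inducible PSMB8 was 22.6-fold higher in granulocytes and PSMB10 1.49-fold. Under PBS, granulocytes thus had more signal than BES on the probe of PSMB8 and less on that of PSMB5.

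Regulators and the ubiquitin enzymes lay on both sides. PSMF1 was 1.94-fold higher in granulocytes. Among 9 E2 enzymes 5 were higher and 3 lower, beside 46.7% and 45.0% of all probes. UBE2B led, 9.86-fold higher, with UBE2D3, UBE2D1 and UBE2D2 at 2.95-fold, 2.72-fold and 2.40-fold. UBE2E3 was lower by at least 1.01-fold, since 0 granulocyte arrays were well above background, and its fitted difference of -1.44 turned positive under normexp. Of the 8 counted as USP enzymes 3 were higher and 5 lower. USP15 was 19.5-fold, USP50 12.2-fold and USP52, the nuclease subunit, 2.31-fold higher, and USP16 was 3.49-fold lower. UBASH3A was at least 4.57-fold higher in granulocytes, measured against the lowest signal called above background on each BES array.

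**Figure D3:**
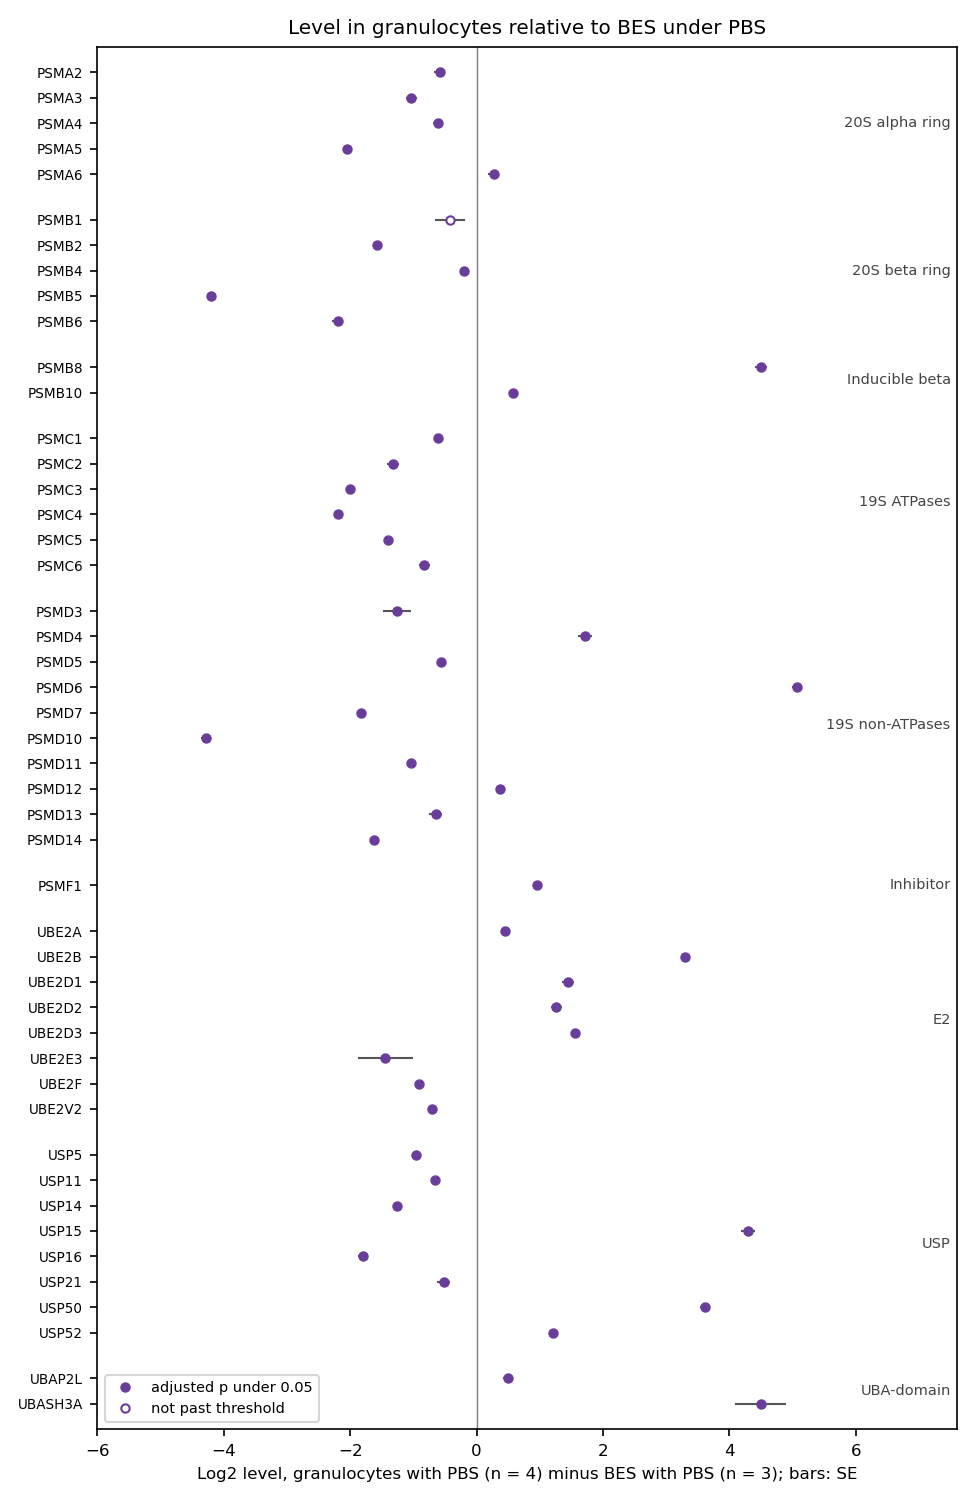
Difference in log2 level between granulocytes with PBS (n = 4) and BES with PBS (n = 3) on the horizontal axis, for each gene reported, ordered by role. Points are limma estimates with bars of 1 SE, filled where the adjusted p is under 0.05; genes of the 26S particle lie mostly to the left, with PSMD6 (5.07), PSMD4 (1.71), PSMD12 (0.37) and PSMA6 (0.27) as exceptions, and the fitted points of PSMB1, UBE2E3 and UBASH3A depend on substitute values at background.

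Spread between arrays was small for most of these genes and close to that of the array. The median SD within a group was 0.07 in BES with PBS, 0.06 in BES with IFNT, 0.11 in granulocytes with PBS and 0.07 in granulocytes with IFNT, against 0.08, 0.07, 0.11 and 0.08 over all probes. The widest spreads were those of PSMD3 in BES with PBS (0.24), USP15 in BES with IFNT (0.31) and UBASH3A in granulocytes (0.89 with PBS and 0.43 with IFNT).

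Another 13 genes of these families stand on the array under older or clone names and were found only through RefSeq symbols, after values had been seen. UBA7, listed as UBE1L, is the E1 enzyme that activates ISG15, the ubiquitin-like protein induced by interferon. It read -0.45, -0.55, -0.79 and -0.33 in granulocytes with PBS and 1.58, 1.74, 1.26 and 1.62 with IFNT, a rise of 2.08 ± 0.13 or 4.23-fold (adjusted p = 2.8e-06). In BES it read -0.97, -0.80 and -1.04 with PBS and -0.97, -0.70 and -1.16 with IFNT, and the responses differed by 2.08 ± 0.20 (adjusted p = 8.9e-06). UBA1, the main E1 for ubiquitin, fell in BES by 0.44 ± 0.07 (adjusted p = 0.0314), a call lost when IFNT sample 1, 2 or 3 or PBS sample 1 or 2 of BES was left out (-0.46 to -0.38); it was also lost with row as a covariate (-0.30), without the filter on dim probes and in the joint fit. It did not pass in granulocytes (-0.17 ± 0.21). The polyubiquitin gene UBB was at -0.01 ± 0.16 in granulocytes and -0.11 ± 0.05 in BES, and neither passed.

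In granulocytes 2 of these 13 genes rose and 3 fell, beside 17.2% and 27.4% of all probes. In BES 0 rose and 1 fell, beside 2.29% and 1.37% of all probes. The alpha subunit PSMA7 fell in granulocytes by 0.53 ± 0.06 (adjusted p = 9.52e-05), from 0.42, 0.36, 0.33 and 0.22 to -0.17, -0.27, -0.19 and -0.15. PSMD8 fell by 0.44 ± 0.05 and UBE2J2 by 0.29 ± 0.05, while USP37 rose by 0.86 ± 0.15. In BES USP37 was higher by 1.115 ± 0.27 without overlap but did not pass (limma adjusted p = 0.0777). It passed there in the joint fit (0.0217), with the intensity trend (0.0288) and without PBS sample 2 (0.0464). Its probe was well above background on 2 BES arrays with PBS, and its responses were not shown to differ (-0.26 ± 0.32). With PSMA7 and PSMA1 (-0.19 ± 0.08 in granulocytes, not past), the alpha ring held 7 measured members. In granulocytes 3 of them rose, 2 fell and 2 did not pass, beside 17.2% of all probes called higher and 27.4% lower.

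Genes that work beside the proteasome were counted from lists of the pathway. Their counts in granulocytes stand beside 17.2% of all probes called higher and 27.4% lower, and those in BES beside 2.29% and 1.37%. The measured genes of the immunoproteasome and ISG15 list were PSMB9, ISG15, TAP2, USP18, PSME1 and PSME2. Of these, 6 of 6 rose in granulocytes and 3 of 6 in BES. The list was chosen with earlier results known, and PSMB9, USP18, PSME1 and PSME2 had been left out of the main gene set by name. The count is therefore not a test of the pathway. It also leaves out PSMB8, which rose in granulocytes, and PSMB10, which did not pass there (limma adjusted p = 0.0828). In BES ISG15 increased by 8.42 ± 0.10 and USP18, the ISG15 protease, by 4.23 ± 0.09. In granulocytes USP18 rose by 3.98 ± 0.09, and ISG15, saturated on all 4 IFNT arrays, was at least 2.74-fold higher (adjusted p = 6.73e-07). Of 11 proteasome cofactors 1 rose and 5 fell in granulocytes: UCHL5, a deubiquitinase of the cap, rose by 0.46 ± 0.05 (adjusted p = 1.04e-04), whereas the ubiquitin receptor SQSTM1 fell by 0.86 ± 0.08 (adjusted p = 4.01e-05) and the cap-bound thioredoxin TXNL1 by 0.37 ± 0.04. In BES 0 of 11 rose and 1 fell, UCHL1, by 0.51 ± 0.09 (adjusted p = 0.0408). The BES calls of BIRC3 and PSME1 (0.25 ± 0.04) were lost when any single BES sample was left out. That of UCHL1 was lost without any single BES sample but PBS sample 3. All 3 were also lost with row as a covariate and without the filter on dim probes.

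Of 24 ubiquitin ligase genes tested in granulocytes 4 rose and 6 fell. RNF8, a ligase of the DNA damage response, rose by 2.63 ± 0.05 (adjusted p = 3.79e-09) and RNF114 by 1.58 ± 0.06 (adjusted p = 1.08e-07), while RNF13 fell by 0.97 ± 0.08 (adjusted p = 2.15e-05). In BES 2 of 26 rose, RNF114 by 0.78 ± 0.04 (adjusted p = 1.48e-04) and a gene that the array calls BIRC2 and RefSeq BIRC3 by 0.28 ± 0.04 (adjusted p = 0.0286), and RNF8 differed by 0.05 ± 0.05. Among 6 deubiquitinases of other families 1 rose and 4 fell in granulocytes, OTUB2 by 1.08 ± 0.15 upward and JOSD1 and YOD1 by 0.76 ± 0.04 and 0.65 ± 0.09 downward, and 0 of 6 passed in BES. Of 7 genes for NEDD8, SUMO and UFM1 0 rose and 4 fell in granulocytes, with PIAS1, a SUMO ligase, down by 0.44 ± 0.07 (not past the threshold in the joint fit) and the UFM1 conjugating enzyme UFC1 by 0.31 ± 0.07, and 0 of 6 passed in BES.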

How the data were processed

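The authors deposited scanner files with fluorescence intensity per spot, made with Agilent Feature Extraction 9.5 per the submitters' processing notes; the processed signal used here is corrected for background and spatial trend, with substitute values at background, per the file headers. A deposited value table holds log2 values, and in each of its columns (medians -3.42 to -3.23) the value was the log2 processed signal minus 1 constant, for 100% of probes within 0.01; whether further centring was intended is not stated. No genome build is given and no position is stated.

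The log2 processed signal minus each array's 75th percentile of non-control probes was analysed. Spots with the scanner's outlier flags (uniformity, population) were dropped. Testing required a probe well above background on at least 3 arrays in BES or 4 in granulocytes, or in either for contrasts across cell types. Each cell type had its own fit of IFNT against PBS; the difference of the responses and the difference in level under PBS came from a fit of all 14 arrays. Tests were two-sided in limma 3.58.1 (R 4.3.3), adjusted by Benjamini-Hochberg over all probes tested, threshold 0.05. The script was tested on simulated data. Where a group had no array above background, a fold was computed against the lowest signal called above background on each array and is given as a lower bound.

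Members and gene lists were chosen with earlier results of these data known. The text names the 10 largest rises and falls per cell type, the 8 largest differences of response and the 6 largest differences in level in each direction, genes with an outlying sample, untested members, a fixed set (PSMB8, PSMB10, PSMF1, PSMB5, PSMC1, PSMD14, UBA1, UBA7, UBB), and up to 3 genes per other pathway list and cell type by smallest p. UBE2L6, PSME3 and PSMD1 of that set had no probe found by name. The other members are named for completeness of each role, except 3 that are not reported here, though the counts and medians include them. Of the 50 genes 48 had a RefSeq symbol (ARS-UCD2.0), 47 the same one. No promoter table was used here. Alternatives were quantile normalization, normexp background correction (offset 50), the deposited table, no filter on dim probes, an intensity trend with robust prior, the mean of all probes of a symbol, a replicate block, 1 fit of all arrays, array row as a covariate, and leaving out each sample. Correlations of arrays within a group were 0.995 to 0.999.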

Additional observations from a re-analysis of the deposited data

Results flagged for a closer look

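In groups of 4 samples, 8 of 96 gene and group pairs had 1 sample far from the others, where chance gives about 1 in 20, and 7 of the 8 are given here. PBS sample 3 of granulocytes was highest for PSMD13 (2.76, next 2.44) and PSMB4 (4.48, next 4.28) and lowest for PSMD3 (-2.19, next -1.44). IFNT sample 3 was highest for PSMD12 (0.001, next -0.07) and PSMD5 (-0.20, next -0.32). USP14 was lowest in PBS sample 4 (-0.67, next -0.47) and UBASH3A lowest in IFNT sample 1 (-6.39, next -5.59). Without PBS sample 3 PSMB4 passed the test in granulocytes (limma adjusted p = 0.0186).

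The IFNT response of granulocytes minus that of BES passed the test of the difference itself for 20 genes. It was positive for PSMA2 (1.82), PSMC3 (1.53), PSMB8 (0.59), USP52 (0.55), PSMF1 (0.53), PSMD6 (0.49), PSMA3 (0.45), USP11 (0.41) and UBE2D3 (0.30). It was negative for USP15 (-0.99), PSMB5 (-0.54), UBE2B (-0.53), PSMD12 (-0.48), USP16 (-0.44), USP50 (-0.38), PSMC6 (-0.38), PSMA6 (-0.37), UBE2V2 (-0.32), PSMC1 (-0.30) and PSMD5 (-0.23). The granulocyte part of each difference cannot be told apart from array row.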

How the results depend on the processing

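The count of genes called in BES (1) became 0 with array row as a covariate, 0 without a filter on dim probes, 7 (3 higher, 4 lower) with an intensity trend and robust prior, and 3 (2 higher, 1 lower) under normexp; over all probes the count moved with it, from 414 to 149, 189, 1011 and 616. The count of genes ranged from 0 to 1 with single samples left out; the causes were not tested. Counts with single samples left out ranged from 20 to 24 in granulocytes (24), from 15 to 21 for the difference of responses (20) and from 47 to 48 for levels under PBS (47). Counting only signs that turned where the value was past the threshold under either setting, those among the genes reported were all differences in level under PBS: PSMA6 (-0.29) and UBE2J2 (-0.021) under quantile normalization, PSMB1 (0.69) and UBE2E3 (0.55) under normexp, and USP21 (0.54) with the mean of its probes, 1 of which was not well above background in granulocytes. Values near 0 that passed under neither setting also turned, among them the BES changes of PSMB5 (0.011 to -0.016) and PSMF1 (0.03 to -0.062) with array row as a covariate.

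The labels do not say that a sample number marks a shared animal or batch, and the numbers were not taken as pairs: deviations from the group means correlated between same-numbered arrays at 0.05, 0.06 and -0.01 in BES and at 0.14, 0.19, 0.20 and -0.12 in granulocytes, and 1 of 3 PBS arrays of BES and 2 of 4 of granulocytes correlated best with their own number. With the number as a replicate block 0 genes were called in BES, 24 in granulocytes (10 higher, 14 lower), 21 for the difference of responses and 46 for levels; PSMD6 in BES (adjusted p = 0.0519), USP50 in granulocytes (0.0642), UBE2V2 for the difference of responses (0.0619) and PSMA6 for the level (0.27, 0.0533) lost their calls, as did UCHL1 (0.0792), BIRC3 (0.0789) and PSME1 (0.0798) in BES. Over all probes the BES count was 318 against 414 and the granulocyte count 4674 against 4633. Dim probes limit PSMB1, UBE2E3 and UBASH3A, whose levels in 1 cell type are at background.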
